A study of Mus musculus with 10 samples.

Results

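The genes described here are 7 regulators of the anterior and posterior sides of the mouse limb bud. They are Alx4 and Pax9, which mark anterior mesenchyme, the zinc finger genes Sall1, Sall3 and Sall4, and the basic helix-loop-helix genes Hand1 and Hand2. They were chosen by name from a count table of 47729 Ensembl genes, and all 7 were found there and passed the filter on low counts, among 20562 genes tested. RNA came from forelimb buds of 5 control and 5 knockout embryos at embryonic day 11.5 to 12, with 49 to 51 somites, from litters A to D. All 5 knockouts are labelled Prx1Cre_+-Cxxc1fl_fl, which means the Prx1Cre transgene with both copies of Cxxc1 floxed. The controls also carry at least 1 floxed allele. Control 1 is labelled Prx1Cre_+-Cxxc1fl_wt, controls 2 and 4 CreWT-Cxxc1fl_WT, control 3 CreWT-Cxxc1fl_fl, and control 5 Prx1Cre?-Cxxc1fl_fl, with its Cre status in question. There were 2 embryos of each group in litter A and 1 of each in every other litter. Prx1Cre recombines in limb mesenchyme and leaves the ectoderm, vessels, blood and muscle precursors of the bud without recombination.

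The anterior to posterior axis of the limb bud sets digit number and identity. HAND2 acts in posterior mesenchyme, where it turns on Shh, the signal of the posterior margin, and it opposes the repressor GLI3, which dominates anteriorly. ALX4 is a homeodomain protein that keeps Shh from being expressed anteriorly, and mice that lack it grow extra anterior digits. PAX9 is a paired box protein of anterior mesenchyme, and mice without it have an extra anterior digit. HAND1 is a close relative of HAND2 found mainly in ventral limb mesenchyme. The SALL proteins recruit the NuRD histone deacetylase complex, and human carriers of SALL4 or SALL1 mutations have thumb and radial defects.

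Cxxc1, the deleted gene, encodes a reader of unmethylated CpG found in the SET1 complexes, which methylate lysine 4 of histone H3. Its level, in CPM (counts scaled to TMM-adjusted library size), ran from 89.5 to 105.8 in controls and from 73.1 to 76.2 in knockouts, with a log2 fold change of -0.36 (SE 0.05, edgeR's quasi-likelihood F test with an adjusted p of 0.000144 after Benjamini-Hochberg over all genes). Counts over the whole gene cannot show the floxed exons on their own. Library totals ran from 33274911 to 49880815 counts. Of all genes tested, 35.2% were called at an adjusted p below 0.05, 18.1% higher and 17.1% lower in knockouts, and in 25.3% the groups did not overlap. Of the called genes 51.3% were higher, and 62.2% were when libraries were scaled by their totals alone. Markers of limb mesenchyme were lower in sum, at 1663 to 1731 CPM in controls and 891 to 973 CPM in knockouts, with 4 of 6 genes lower and 2 not past the test. Macrophage markers were higher in 9 of 9 genes (45.5 to 57.9 and 174 to 204 CPM in sum), limb ectoderm in 6 of 9 (292 to 481 and 527 to 627 CPM), endothelium in 5 of 6 (212 to 246 and 263 to 303 CPM), erythroid cells in 7 of 8 (2100 to 2449 and 2455 to 5309 CPM) and migrating muscle precursors in 5 of 6 (70.6 to 89.8 and 102 to 173 CPM). The part of these shifts in the results that follow was not tested, and in bulk RNA fewer cells of a type and less RNA per cell cannot be told apart.

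Of the 7 genes, Pax9, Hand1, Alx4 and Sall1 were lower in knockouts and Sall3 and Sall4 were higher, while Hand2 did not pass the test. The sizes were unequal. Pax9 was lower by 8.72-fold and Hand1 by 6.60-fold, Alx4 by 1.80-fold and Sall1 by 1.24-fold, and Sall3 and Sall4 were higher by 1.48-fold and 1.46-fold. The 6 calls among 7 genes stand beside a share of 35.2% over all genes tested, and the 4 genes whose groups did not overlap beside a share of 25.3%. The median log2 fold change of the 7 was -0.32, and that of all genes tested was -0.000872. Without regard to sign the medians were 0.57 and 0.23.

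**Figure D1:**
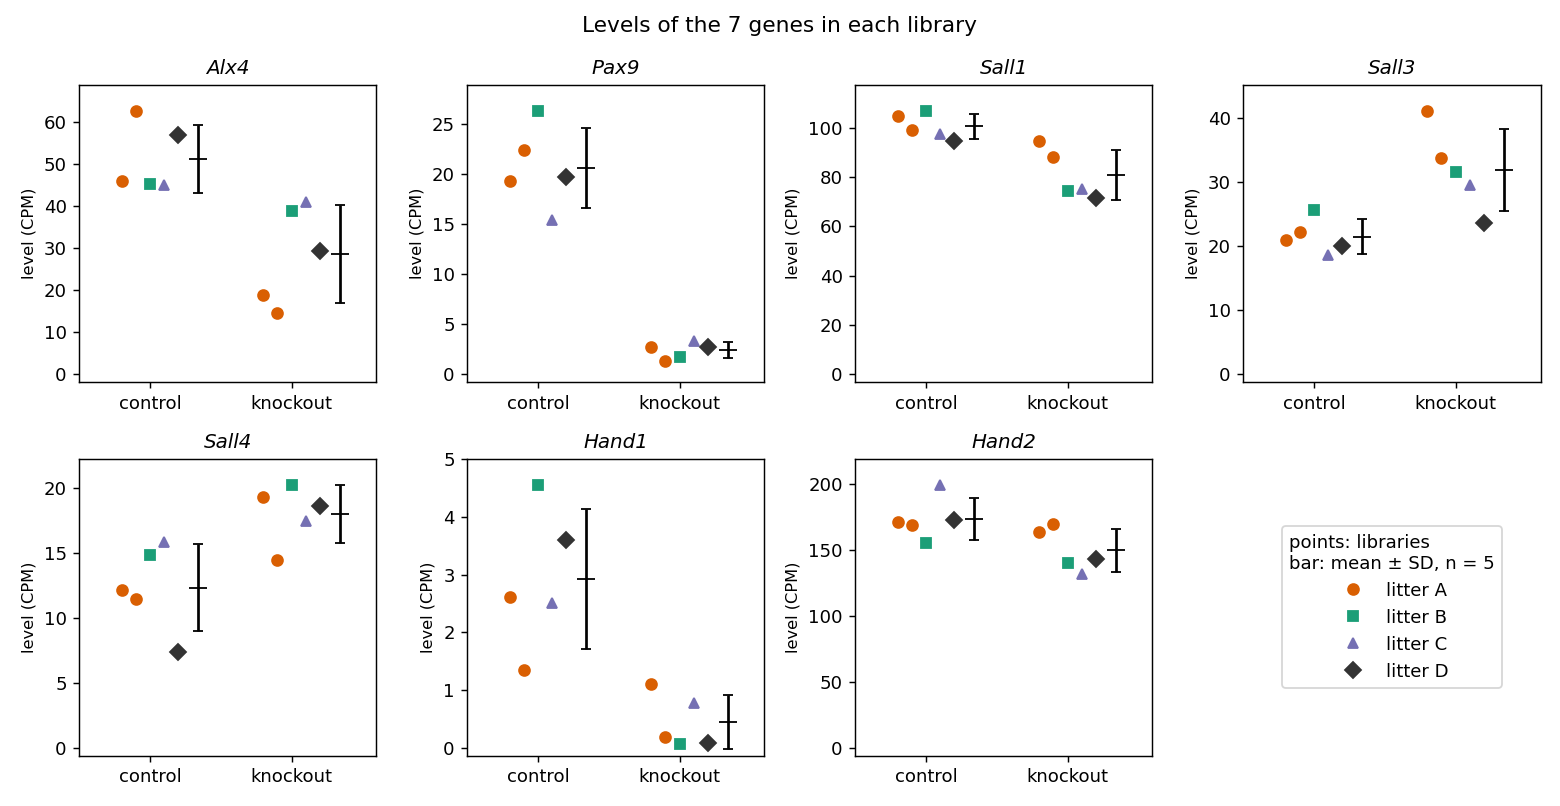
Level of each gene in CPM (vertical axes start near 0) in 5 control and 5 knockout libraries, with points shaped and coloured by litter and a bar for mean ± SD. Controls and knockouts do not overlap in Alx4, Pax9, Sall1 and Hand1, and overlap in Sall3, Sall4 and Hand2.

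Pax9 (ENSMUSG00000001497, chromosome 12, 56691767 to 56712822, plus strand, GRCm38) was the member with the largest fold change in the edgeR fit of all libraries. Its order with Hand1 depended on the fit. Without litter A Pax9 was at -2.97 and Hand1 at -3.48, and with limma at a pseudocount of 0.1 they were at -3.18 and -3.46. Controls 1 to 5 held 19.3, 22.4, 26.3, 15.4 and 19.7 CPM, and knockouts 1 to 5 held 2.69, 1.34, 1.75, 3.34 and 2.69 CPM. Every knockout lay far below the lowest control, and no library stood between the groups. The means were 20.6 ± 4.04 and 2.36 ± 0.806 CPM (SD, n = 5 each), with a log2 fold change of -3.13 (SE 0.23, edgeR, adjusted p = 1.1e-06). A larger fall was found in 0.0875% of the genes tested. Within litters A, B, C and D the log2 difference was -3.42, -3.88, -2.19 and -2.85. Near the start of Pax9, on the opposite strand, the antisense gene Gm15524 shares no exon base with it. Gm15524 had 10, 11, 18, 4 and 7 counts in controls and 1, 0, 0, 0 and 0 in knockouts, too few to pass the filter of the edgeR fit. The groups did not overlap, and a two-sided exact permutation test on its CPM gave p = 0.00794, the smallest that 5 libraries a group allow. At the other end Slc25a21, a mitochondrial carrier gene read from the other strand, overlaps 3.7% of Pax9 exon bases and was at 1.61 ± 0.350 and 1.92 ± 0.403 CPM (SD, n = 5 each, adjusted p = 0.354 by edgeR).

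Alx4 (ENSMUSG00000040310, chromosome 2, 93642384 to 93681339, plus strand) was lower in knockouts but spread widely among them. Controls 1 to 5 held 46.1, 62.6, 45.3, 44.9 and 57.0 CPM, and knockouts 1 to 5 held 18.9, 14.6, 38.8, 41.1 and 29.3 CPM. The lowest values were those of knockouts 1 and 2, both of litter A, and knockout 4 came close to the lowest control. The means were 51.2 ± 8.12 and 28.5 ± 11.7 CPM (SD, n = 5 each), with a log2 fold change of -0.85 (SE 0.25, edgeR, adjusted p = 0.0183). Within litters A to D the log2 difference was -1.69, -0.23, -0.13 and -0.96. Without litter A, with 3 libraries a group, it was -0.44 and did not pass (adjusted p = 0.0696). With only the 3 controls labelled as without Cre it was -0.84 and did not pass either (adjusted p = 0.0651). The difference between litter A and the other litters was itself tested as an interaction, and for Alx4 it was -1.27 on the log2 scale (unadjusted p = 0.000764, adjusted p = 0.359 over all genes by edgeR). This interaction test called 0 of 20562 genes once adjusted, while 1748 of them (8.5%) had an unadjusted p under 0.05.

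Alx4 also moved with Pax1, a relative of Pax9 known from the shoulder girdle and sclerotome. Pax1 was at 0.285, 6.198, 0.123, 0.0626 and 30.3 CPM in controls 1 to 5 and at 0.0748, 0.0764, 14.1, 7.74 and 13.99 CPM in knockouts 1 to 5. In each group the libraries with the highest Pax1 were those with the highest Alx4, namely controls 2 and 5 and knockouts 3, 4 and 5. Pax1 itself did not differ between the groups beyond this spread (log2 fold change -0.04, SE 1.37, adjusted p = 0.985 by edgeR), and without control 5 it was at 2.12 (adjusted p = 0.291). Irx3, a factor of proximal and anterior limb bud, was highest in the same libraries, at 10.4 and 25.1 CPM in controls 2 and 5 and 15.9, 11.01 and 16.8 CPM in knockouts 3 to 5, and between 2.98 and 5.76 CPM in the other 5. The part of this spread in the Alx4 result was not tested. The comparison of Alx4 with these genes was made after their values had been seen, and not every listed anterior gene followed. Irx5 was highest in the same libraries as Irx3. Among controls, though, Alx1 was highest in control 4 (2.67 CPM) and Asb4 in control 1 (338 CPM).

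Hand1 (ENSMUSG00000037335, chromosome 11, 57828705 to 57832818, minus strand) was the member with the lowest level. Controls 1 to 5 held 2.61, 1.35, 4.55, 2.50 and 3.60 CPM, from 119, 58, 223, 120 and 160 counts. Knockouts 1 to 5 held 1.097, 0.191, 0.0603, 0.783 and 0.0834 CPM, from 44, 10, 2, 34 and 4 counts. Knockouts 2, 3 and 5 were nearly without Hand1, and knockout 3 lay under the 0.0905 CPM that 3 counts make in that library. Knockouts 1 and 4 held most of the Hand1 counts of their group, and both lay below the lowest control. The log2 fold change was -2.72 (SE 0.61, edgeR, adjusted p = 0.00431), on means of 2.92 ± 1.21 and 0.443 ± 0.470 CPM (SD, n = 5 each). It was -1.89 and -1.62 within litters A and C and -5.45 and -4.83 within litters B and D. The values for litters B and D rest on 2 and 4 knockout counts. Their size therefore depends on the prior count of 2 added before the log. The interaction with litter A was 1.82 (adjusted p = 0.725). The size of the Hand1 change depended on single libraries, since it was -3.36 without knockout 1 and between -3.04 and -2.44 with any other library left out. It was -3.48 without litter A and -3.46 with limma at a pseudocount of 0.1, and passed in each of these fits.

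Hand2 (ENSMUSG00000038193, chromosome 8, 57320983 to 57324633, plus strand) was the member with the highest level and the smallest difference. Controls 1 to 5 held 171.0, 168.8, 155.4, 199.1 and 172.8 CPM, and knockouts 1 to 5 held 163.8, 169.8, 139.8, 131.7 and 143.1 CPM. The groups overlapped, since knockouts 1 and 2 lay among the controls. The log2 fold change was -0.21 (SE 0.08, edgeR, adjusted p = 0.0569). A two-sided exact permutation test on its CPM gave p = 0.0556. Knockouts were lower in every litter, at -0.03, -0.15, -0.60 and -0.27 for A to D. Without litter A it was -0.35 and passed (adjusted p = 0.0310), and its interaction with litter A was 0.32 (adjusted p = 0.558).

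The gene on the opposite strand at this locus, Hand2os1, was 2.23-fold lower in knockouts. Hand2os1 is a noncoding RNA gene (chromosome 8, 57281117 to 57324233, minus strand) that covers part of Hand2 and shares 461 of its exon bases, 19.6%. It was at 39.7, 35.9, 28.0, 37.6 and 29.0 CPM in controls and at 16.7, 17.0, 14.03, 12.7 and 15.9 CPM in knockouts. Every knockout lay well below every control, in contrast to the overlap seen in Hand2. The log2 fold change was -1.15 (SE 0.11, edgeR, adjusted p = 1.3e-05), and -1.16, -0.997, -1.56 and -0.86 within litters A to D. Of the counts assigned to the pair, 14.4% to 18.8% went to Hand2os1 in controls and 8.80% to 10.02% in knockouts. The sources used here do not say if counting used strand, so the split between the genes is uncertain. With their counts summed into 1 gene, the log2 fold change was -0.33 (adjusted p = 0.00700 by edgeR). Hand2os1 was singled out after its values had been seen.

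**Figure D2:**
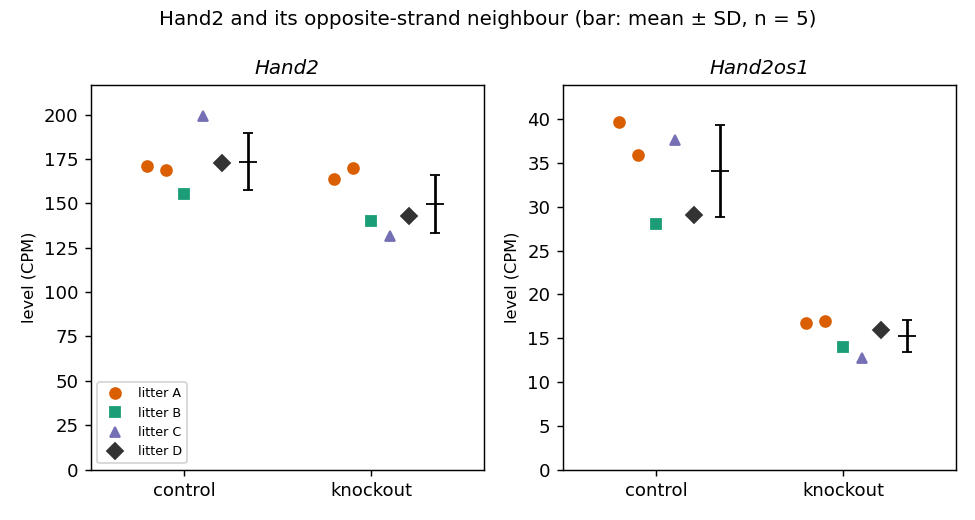
Level in CPM of Hand2 (left) and of Hand2os1 (right) in each library, with points by litter and a bar for mean ± SD (n = 5). The Hand2 groups overlap between 155.4 and 169.8 CPM, while Hand2os1 lies at 28.0 CPM or more in controls and at 17.0 CPM or less in knockouts.

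Promoter sequence is shown because CXXC1 binds CpG. Pax9, Hand2 and Sall1 are the members shown because only they had a window. RefSeq windows of 300 bases around a transcript start (build GRCm38.p6, 3 of the 7 members matched) are printed 5′ to 3′ on the gene's strand, with each CpG dinucleotide in capitals. The motif searched was CG, which reads the same on both strands.
Pax9 (chr12:56695221-56695520, plus strand): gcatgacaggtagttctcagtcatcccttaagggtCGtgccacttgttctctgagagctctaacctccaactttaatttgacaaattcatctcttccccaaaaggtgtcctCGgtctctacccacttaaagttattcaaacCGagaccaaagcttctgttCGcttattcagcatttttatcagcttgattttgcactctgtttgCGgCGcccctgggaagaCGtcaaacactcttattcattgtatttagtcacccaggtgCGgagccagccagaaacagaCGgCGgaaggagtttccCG
Hand2 (chr8:57320733-57321032, plus strand): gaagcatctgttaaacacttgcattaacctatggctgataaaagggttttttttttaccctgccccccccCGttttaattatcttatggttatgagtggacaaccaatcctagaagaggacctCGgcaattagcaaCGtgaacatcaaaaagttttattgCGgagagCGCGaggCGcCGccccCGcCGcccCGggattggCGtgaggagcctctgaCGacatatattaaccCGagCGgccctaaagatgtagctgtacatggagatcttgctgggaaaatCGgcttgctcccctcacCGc
Sall1 (chr8:89044113-89044412, minus strand): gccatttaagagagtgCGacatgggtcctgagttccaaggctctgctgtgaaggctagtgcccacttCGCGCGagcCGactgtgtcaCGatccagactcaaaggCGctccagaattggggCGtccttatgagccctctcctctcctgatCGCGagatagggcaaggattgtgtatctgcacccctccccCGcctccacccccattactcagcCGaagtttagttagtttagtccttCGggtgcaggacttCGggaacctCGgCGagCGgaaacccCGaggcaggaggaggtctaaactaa
The windows hold 11, 17 and 18 CpG, against a median of 7 over 32851 windows of the same length, of which 94.6% hold at least 1. The Pax9 window has the fewest CpG of those printed, and 58.6% of all windows hold fewer, compared with 68.6% for Hand2 and 70.3% for Sall1. It lies inside the gene, downstream of the gene start at 56691767, while the Hand2 and Sall1 windows span the starts of their genes. The counts therefore compare unlike windows. Sall1 has further start windows, with 27 and 39 CpG, so the printed one holds its fewest. No binding or methylation was measured in these data.

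The SALL genes did not move together. Sall1 (ENSMUSG00000031665, chromosome 8, 89027235 to 89044162, minus strand) held 104.7, 99.2, 106.7, 97.3 and 94.8 CPM in controls 1 to 5 and 94.6, 88.1, 74.3, 75.3 and 71.5 CPM in knockouts 1 to 5. Knockout 1 lay just under the lowest control, and the knockouts of litters B, C and D lay lowest. The log2 fold change was -0.32 (SE 0.08, edgeR, adjusted p = 0.00644), on means of 100.5 ± 5.02 and 80.8 ± 10.03 CPM (SD, n = 5 each). Within litters A to D it was -0.16, -0.52, -0.37 and -0.41.

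Sall3 (ENSMUSG00000024565, chromosome 18, 80966376 to 80986771, minus strand), a gene of distal limb mesenchyme, was higher in knockouts. Controls 1 to 5 held 20.9, 22.2, 25.7, 18.6 and 20.01 CPM, and knockouts 1 to 5 held 41.1, 33.7, 31.6, 29.5 and 23.6 CPM. Only knockout 5 fell within the range of the controls, and knockout 1 was the highest. The log2 fold change was 0.57 (SE 0.13, edgeR, adjusted p = 0.00498), on means of 21.5 ± 2.68 and 31.9 ± 6.37 CPM (SD, n = 5 each). It was higher in 4 of 4 litters, by 0.79, 0.30, 0.66 and 0.24 for A to D. Without litter A it was 0.39 and did not pass (adjusted p = 0.107).

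Sall4 (ENSMUSG00000027547, chromosome 2, 168748332 to 168767943, minus strand), which TBX5 activates in the early forelimb, was higher as well, with less certainty. Controls 1 to 5 held 12.1, 11.5, 14.8, 15.8 and 7.33 CPM, and knockouts 1 to 5 held 19.3, 14.4, 20.2, 17.4 and 18.6 CPM. Control 5 was the lowest library, and knockout 2 lay among the controls. The log2 fold change was 0.54 (SE 0.17, edgeR, adjusted p = 0.0285), on means of 12.3 ± 3.33 and 17.99 ± 2.25 CPM (SD, n = 5 each). Within litters A to D it was 0.50, 0.45, 0.14 and 1.34. The call was lost when control 1 or 2 was left out (0.54 and 0.52), when knockout 1, 3 or 5 was left out (0.52, 0.50 and 0.53), when litter A was (0.56, adjusted p = 0.162) and with only the 3 controls labelled as without Cre (0.35, adjusted p = 0.0777). On the other strand, Gm14261 overlaps 9.5% of the exon bases of Sall4 and was at 0.0962 and 0.117 CPM, far below Sall4.

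**Figure D3:**
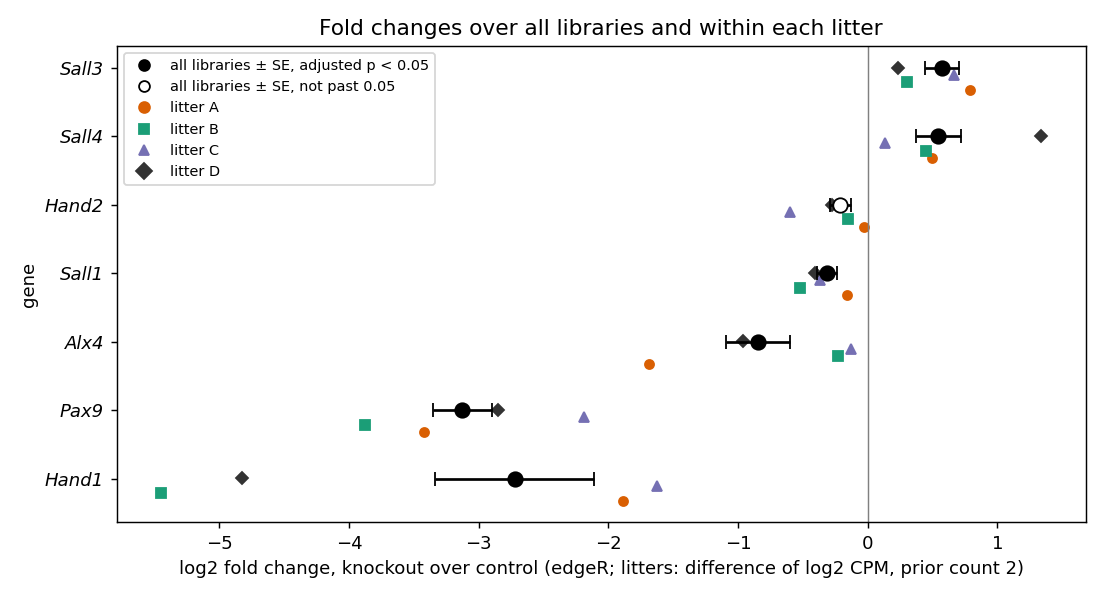
Log2 fold change of knockout over control for each gene, as a black circle with its SE over all libraries (filled where the adjusted p is below 0.05), and as coloured points within each litter. Each gene keeps 1 direction in all 4 litters, and the litters spread most for Hand1, from -5.45 to -1.62. The Hand1 points of litters B and D rest on 2 and 4 knockout counts and depend on the prior count of 2.

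Ratios within a library, which do not depend on how libraries are scaled, were compared for 5 pairs of the genes by an exact permutation test (two-sided), which can go no lower than p = 0.00794 with 5 libraries a group, adjusted by Benjamini-Hochberg over the 5 pairs. Sall1 lost ground to both of its relatives, which follows in part from the calls above, since the same libraries were used. The log2 ratio of Sall1 to Sall3 was 2.23 ± 0.131 in controls and 1.35 ± 0.158 in knockouts (SD, n = 5 each), a difference of -0.88 with no overlap between groups (exact adjusted p = 0.0132). The ratio of Sall1 to Sall4 differed by -0.91 (exact adjusted p = 0.0132), with 1 control and 1 knockout library nearly touching at 2.62 and 2.61. The ratio of Sall3 to Sall4 was 0.84 ± 0.434 and 0.81 ± 0.353 (SD, n = 5 each), a difference of -0.03 that lay well within the spread (exact adjusted p = 0.905). Hand1 lost ground to Hand2, from -5.97 ± 0.701 to -8.90 ± 1.55 (SD, n = 5 each), a difference of -2.92 (exact adjusted p = 0.0132). The ratio of anterior Alx4 to posterior Hand2 was -1.77 ± 0.274 and -2.49 ± 0.805 (SD, n = 5 each), and its difference of -0.72 did not pass (exact adjusted p = 0.119). Without litter A this difference was -0.097, and with 1 library left out at a time it ran from -0.93 to -0.46. Of the knockouts, 1 and 2 were at -3.11 and -3.54, while 3 and 4 were within the control range.

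**Figure D4:**
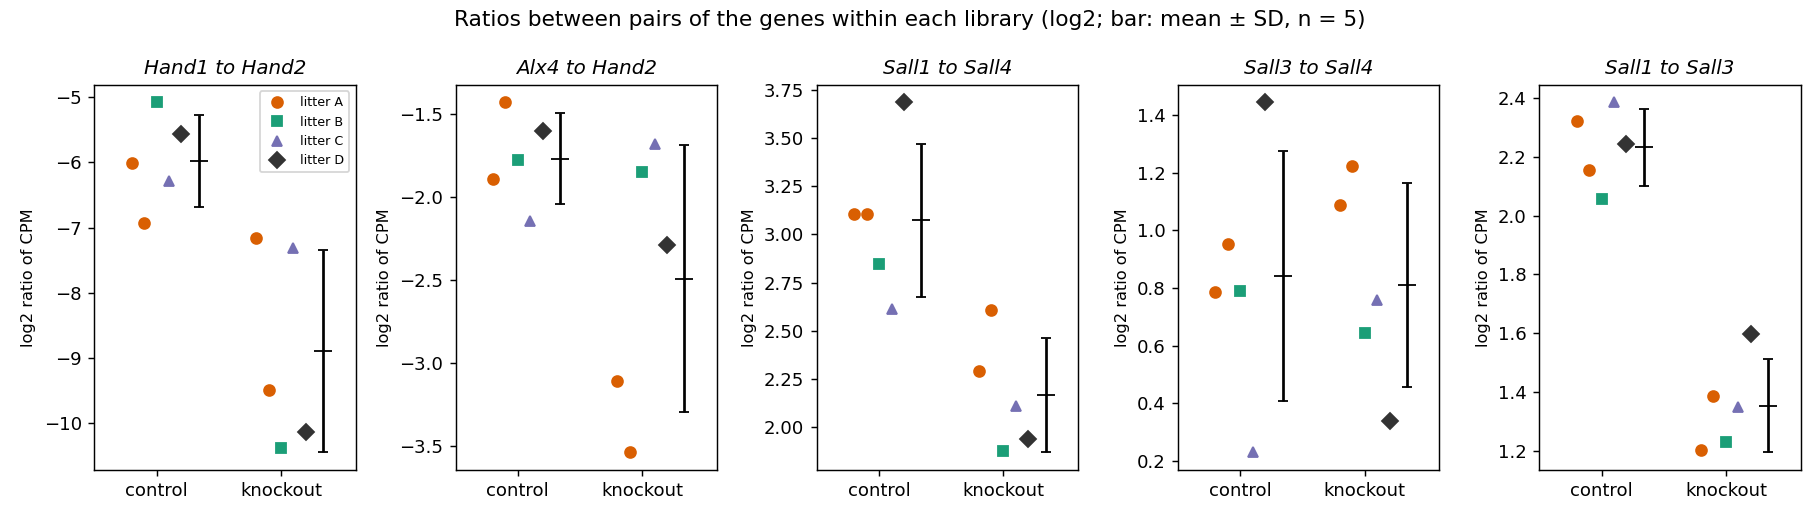
Log2 ratio of the CPM of 2 genes within each library (prior count 2), 1 pair a panel, with points by litter and a bar for mean ± SD (n = 5). The groups separate for Hand1 to Hand2, Sall1 to Sall4 and Sall1 to Sall3, and overlap for Alx4 to Hand2 and Sall3 to Sall4.

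Levels of different genes were compared as CPM per kilobase of annotated exon. In controls the order was Hand2 (73.8), Sall1 (19.1), Alx4 (7.25), Pax9 (4.08), Sall3 (2.87), Sall4 (2.22) and Hand1 (1.46). Neighbours from Pax9 down overlapped between libraries, and those above Pax9 did not. In knockouts Hand2 (63.6) and Sall1 (15.3) stayed at the top, followed by Sall3 (4.26), Alx4 (4.04) and Sall4 (3.25), which overlapped, and then by Pax9 (0.467) and Hand1 (0.222), which overlapped too. Pax9 thus stood above Sall3 and Sall4 by mean in controls and below both in every knockout library.

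Calls among the other genes listed as anterior went both ways, at a share close to that of all genes. Of 11 anterior limb bud genes, 2 were lower, 2 higher and 7 did not pass, with a median log2 fold change of -0.18. Over all genes tested 35.2% were called, 17.1% lower and 18.1% higher. Asb4 (-0.39, SE 0.06) and the repressor gene Gli3 (-0.18, SE 0.06, adjusted p = 0.0310 by edgeR) fell slightly. The 2 higher genes were Etv4 and Etv5, which rose by 1.31 (SE 0.10) and 0.51 (SE 0.09). FGF signals induce both in distal mesenchyme, and they are listed here because they hold back anterior Shh, not as anterior markers. The Gli3 call was lost without litter A (-0.22, adjusted p = 0.0869), with scaling by library totals alone (-0.13, adjusted p = 0.113) and without control 5 or knockout 2, 3 or 4 (-0.18, -0.16, -0.18 and -0.19). The count of lower anterior genes was 1 with library totals alone and without control 5, knockout 2 or knockout 4. It was 3 with the litter or the replicate number as a block, with DESeq2 and with limma at either pseudocount. Leaving out knockout 1, or both control 1 and knockout 3, also gave 3. Among relatives of the members, Alx1 was at -1.01 (SE 0.38) and Sall2 at -0.16 (SE 0.06), and neither passed (adjusted p = 0.0577 and 0.0513 by edgeR), while both passed with the litter as a block (adjusted p = 0.0119 and 0.0484). Alx1 also passed with the replicate number as a block (-1.20, adjusted p = 0.0192), with DESeq2 (adjusted p = 0.0299), with limma at either pseudocount (-1.21 and -1.24), without knockout 3 (-1.54, adjusted p = 0.00103) and without both control 1 and knockout 3 (-1.62). Sall2 also passed without control 1 (-0.21), without both control 1 and knockout 3 (-0.21), without litter A (-0.23) and with only the controls labelled as without Cre (-0.17). Sall2, whose protein is the fourth mouse SALL family member, stood at 101 ± 9.41 and 90.3 ± 0.877 CPM (SD, n = 5 each).

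Posterior genes and genes of the HAND2 network moved in both directions as well. Of 13, 4 were lower, 3 higher and 6 did not pass, with a median of -0.10. The shares over all genes tested were 17.1% lower and 18.1% higher. The count of lower genes was 2 without control 5, without knockout 2 or without knockout 4, and the count of higher genes was 1 without litter A. Shh, which HAND2 activates, rose with a log2 fold change of 1.22 (SE 0.29) while Hand2 itself stood at -0.21. Shh was at 3.68, 3.62, 1.39, 6.28 and 3.80 CPM in controls and at 9.65, 7.37, 10.6, 7.71 and 8.38 CPM in knockouts, with no overlap. Its targets Gli1 (0.53, SE 0.08) and Ptch1 (0.37, SE 0.08) rose too. Without litter A the calls of Shh (1.21, adjusted p = 0.0920 by edgeR) and Ptch1 (0.27, adjusted p = 0.125) were lost. Osr1, an odd-skipped zinc finger factor, fell from 50.5 ± 15.4 to 10.7 ± 4.61 CPM (SD, n = 5 each), and Hoxd12 by 1.06 (SE 0.13) on the log2 scale. The T-box gene Tbx3, a target of HAND2, fell by 0.46 (SE 0.15), and Tbx2 was at -0.27 (SE 0.11) and did not pass (adjusted p = 0.0743 by edgeR), but did with somite stage as a term (-0.29) and without control 1 or 3 (-0.32 and -0.34). The Tbx3 call was lost without litter A (-0.31, adjusted p = 0.360), with only the 3 controls labelled as without Cre (-0.29, adjusted p = 0.204), and when control 1, 2 or 5 or knockout 1, 2 or 4 was left out (-0.46 to -0.34).

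Of the genes that encode HAND partners or the ID inhibitors that sequester such partners, 5 of 9 were lower, 0 higher and 4 did not pass. Their median was -0.22. These counts stand beside shares of 17.1% lower and 18.1% higher over all genes tested. The count of lower genes was 6 with the replicate number as a block, without litter A and without knockout 5. It was 7 with the litter as a block. Twist2 fell from 39.8 ± 6.24 to 18.3 ± 2.37 CPM (SD, n = 5 each), and the E protein gene Tcf4 from 514 ± 70.2 to 312 ± 17.3 CPM. The inhibitor genes Id4 (-1.10, SE 0.15) and Id1 (-0.55, SE 0.08) fell. Twist1, whose protein pairs with HAND2 in the limb bud, was at 153 ± 15.3 and 137 ± 8.69 CPM (SD, n = 5 each) and did not pass (-0.16, adjusted p = 0.0943 by edgeR) unless the litter was a block (-0.15, adjusted p = 0.0334).

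Among 8 factors of limb initiation known to act above Sall4 and Hand2, 3 were lower, 1 higher and 4 did not pass, with a median of -0.05. Across all genes tested 17.1% were lower and 18.1% higher. Tbx5 fell by 1.09 (SE 0.09) while its target Sall4 rose. Prrx1 fell by 0.96 (SE 0.05) and Prrx2 by 0.58 (SE 0.10). Tbx5, Prrx1 and Prrx2 are also among the limb mesenchyme markers above, so the same 3 falls are counted in both lists. Isl1, an early activator of Hand2 in the hindlimb field, rose from 1.83 ± 0.526 to 7.15 ± 1.82 CPM (SD, n = 5 each). Genes of the NuRD complex changed little. Of 11, 3 were higher, 1 lower and 7 did not pass, with a median of -0.01, beside the same shares of 18.1% and 17.1%. The 4 that passed, Gatad2a (0.23, SE 0.06), Mta1 (0.18, SE 0.05), Mta3 (0.17, SE 0.06) and Rbbp4 (-0.16, SE 0.04), moved by less than the members called here, and all 4 calls were lost without litter A (0.15, 0.10, 0.09 and -0.15). Mta3 also missed the threshold with the litter or the replicate number as a block (adjusted p = 0.0621 and 0.0764 by edgeR), with no filter on low counts (adjusted p = 0.0692), and when control 1, 2, 3 or 5 or knockout 1, 2 or 3 was left out (0.14 to 0.17). With only the controls labelled as without Cre, Mta3 (0.14, adjusted p = 0.144) and Rbbp4 (-0.14, adjusted p = 0.0545) missed it. Without both control 1 and knockout 3, Mta1 (0.13) and Mta3 (0.12) did.

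**Figure D5:**
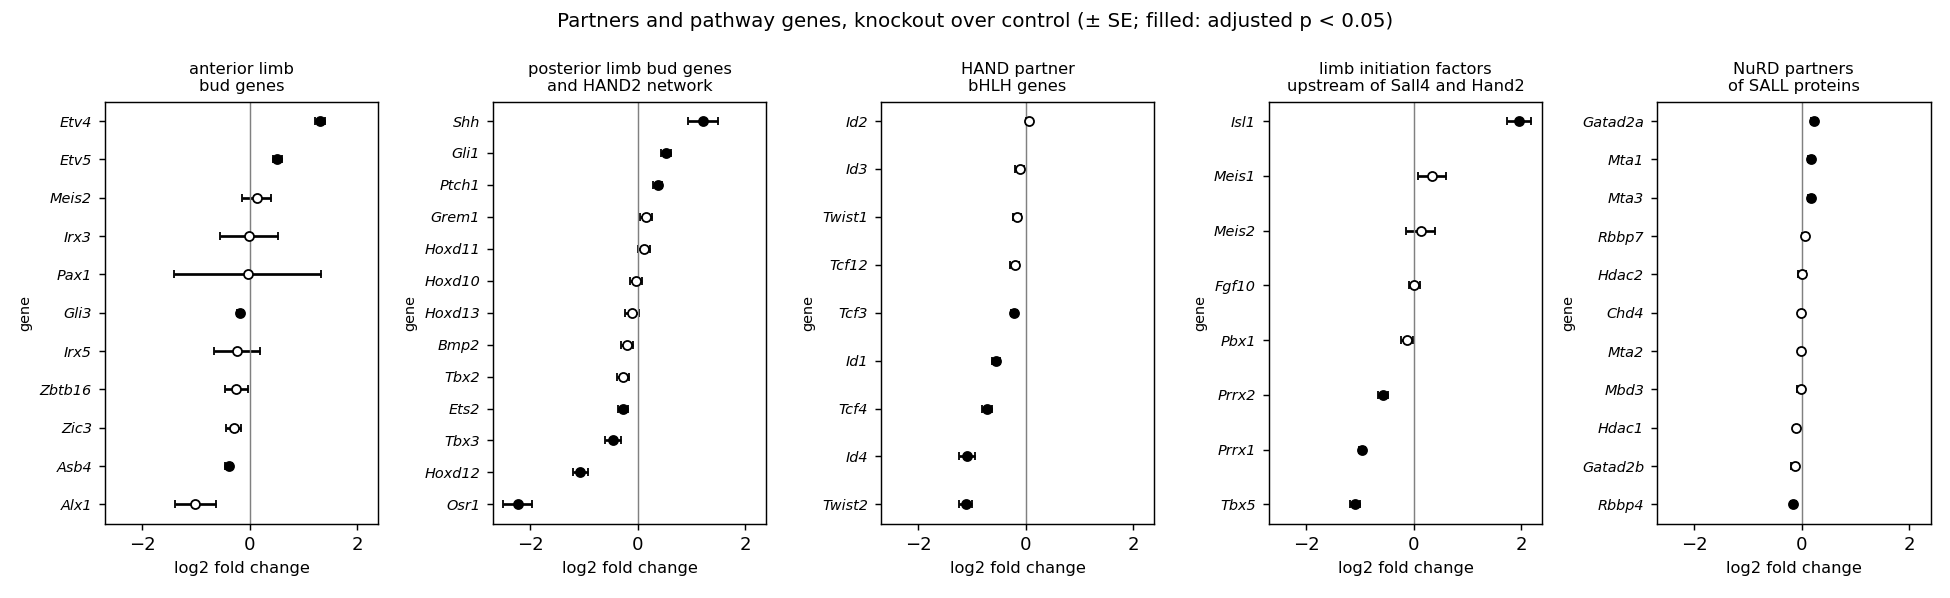
Log2 fold change of knockout over control with its SE for the genes of 5 lists (panels), ordered by size, with filled circles for an adjusted p below 0.05. The anterior, posterior and initiation lists hold genes on both sides of 0. All 5 filled genes of the HAND partner list, which includes the Id genes, lie below 0, and the NuRD genes lie close to 0.

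HAND genes are also used in heart and in sympathetic neurons, so markers of both were read. The heart factor Nkx2-5 was at 0 counts in all 5 controls, which allows up to 0.0613 to 0.0696 CPM at 3 counts a library. It had some counts among the knockouts, but too few to pass the filter on low counts. The summed heart list ran from 14.2 to 26.8 CPM in controls and from 5.43 to 22.1 CPM in knockouts, with 0 of 4 tested genes called. Of 3 tested sympathoadrenal genes 2 were higher, both at low levels. Th, the enzyme of catecholamine synthesis, was at 0.170 ± 0.0402 and 0.830 ± 0.374 CPM (SD, n = 5 each). The part of heart or sympathetic cells in the Hand1 and Hand2 results was not tested.

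The genes most like each member were those with the highest Pearson r of log2 CPM over the 10 libraries, given as a description since all points share the difference between the groups. For Pax9 they were Smoc2 (r = 0.994, log2 fold change -2.63), a secreted matrix-associated protein, and Tmem169 (0.991, -1.64). For Alx4 they were the cysteine dioxygenase gene Cdo1 (0.968, -1.01) and the osteopontin gene Spp1 (0.957, -1.41). For Hand1 they were Pnpla6 (0.966, -0.41) and Lmx1b (0.964, -0.51), the factor that gives dorsal identity to limb mesenchyme. For Hand2 they were Cuta (0.943, -0.10) and Ndufa2 (0.877, -0.20). The most similar genes were Cdc42ep3 (0.965, -0.38) and Lnpk (0.961, -0.25) for Sall1, Dolk (0.975, 0.24) and Spns1 (0.957, 0.18) for Sall3, and Creg2 (0.897, 0.23) and Fmo2 (0.896, 2.46) for Sall4. With the group means removed, r for these 14 pairs ran from 0.780 for Hand2 and Ndufa2 to 0.956 for Sall1 and Cdc42ep3. The pairs were picked for the highest r among 13026 genes in the same libraries, so high values here follow in part from that choice.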

How the data were processed

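Total RNA of forelimb buds was extracted and made into libraries with an Illumina-type RNA kit, per the labels' protocols. The authors deposited estimated counts per Ensembl gene, which were rounded to whole numbers here. The submitters' processing notes name the build mm10, DESeq2 1.16.1, Salmon 0.8.2 and R 3.4.1, with no role given. A second deposited table, of a normalized signal, held rounded counts divided by 1 factor per library (100.00% of values above 0 within 0.01) and served as an alternative. Symbols, positions and exon bases came from GENCODE M21 (GRCm38), which named 47224 of 47729 genes. The test was edgeR 4.0.16 (glmQLFit, glmQLFTest, in R 4.3.3) after TMM scaling and filterByExpr with a minimum count of 10 and a minimum total of 15, with no covariate and Benjamini-Hochberg adjustment over 20562 genes at 0.05. DESeq2 1.42.0 and limma 3.58.1 were alternatives, the latter on log2 of the deposited signal with pseudocounts of 1 and 0.1. The SE is the absolute log2 fold change over the square root of the F statistic. Differences within litters and ratios used log2 CPM with a prior count of 2. Sums of marker genes used CPM. Named genes were the 7 members, up to 4 genes per list with the smallest adjusted p, and known partners. Likeness was taken over protein-coding genes with a mean of at least 1 CPM and a standard symbol. The members and lists were chosen with earlier results of these data known. A few genes of the lists are not reported here and were left out of their counts.

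Libraries held 33274911 to 49880815 counts, so 3 counts make 0.0573 to 0.0905 CPM, which covers counting error only. Pairs of libraries in a group differed by a chi-square of 17.69 to 50.71 per degree of freedom, so none was a duplicate. The biological coefficient of variation was 16.4%. Same-numbered control and knockout libraries came from the same litter per the labels. The correlations of their deviations from the group means were -0.01, 0.16, -0.02, 0.04 and 0.20, and fits with the number or the litter as a block were run. The scripts were tested on simulated data.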

Additional observations from a re-analysis of the deposited data

How the results depend on the processing

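The lower calls of Pax9, Hand1 and Sall1 kept their direction and stayed past the threshold under every alternative run. Under no alternative did the fold change of a member change sign. With the replicate block of the litter or of the number no call of a member changed (Hand2 -0.21 under both, adjusted p = 0.0580 and 0.0798), and the counts of called genes stayed within 1.5 times. Without litter A, 3 against 3, the genes called fell to 2002 higher and 2021 lower, members called higher to 0, Alx4 was at -0.44, Sall3 at 0.39 and Sall4 at 0.56, all short of the threshold, and Hand2 passed at -0.35. The ratios of Hand1 to Hand2, Sall1 to Sall4 and Sall1 to Sall3 were then -3.63, -1.07 and -0.83, where an exact test of 3 against 3 cannot reach the threshold, and that of Alx4 to Hand2 was -0.097. With only the controls without Cre, Alx4 (-0.84) and Sall4 (0.35) missed the threshold and 1 member was called higher. Without control 1 and knockout 3, where Xist was at 4114 and 2290 CPM, Sall4 missed it (0.49) and 1 member was called higher. Hand2 passed with DESeq2 (-0.21), with somite stage as a term (-0.22) and, in an alternative chosen after seeing the data, when summed with Hand2os1 (-0.33). The cause of these changes was not tested. Leaving out 1 library at a time moved Hand2 from -0.26 to -0.16 and Sall4 from 0.40 to 0.65, members called higher from 1 to 2, the ratio of Alx4 to Hand2 from -0.93 to -0.46, Hand1 from -3.36 to -2.44, and the ratio of Sall3 to Sall4 from -0.18 to 0.12. Hand2 passed without control 3, knockout 1 or knockout 2. Among the pathway lists 28 of 264 counts moved by more than 1.5 times. Depth limits Hand1, which had 2 to 44 counts a knockout library.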
